A study of Mus musculus with 30 samples.

Results

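The 9 genes described here encode titin and the proteins that hold it in place in the sarcomere, the contractile unit of heart muscle. They were chosen by name: Ttn, the myomesin genes Myom1, Myom2 and Myom3, Tcap, Ldb3, Actn2, Mybpc3 and Nebl, 9 of 48820 genes in the deposited count table. All 9 passed the filter on low counts, which kept 19280 genes. Hearts came from wild-type (WT), untreated mice at 10 ages, with 3 libraries per age: embryonic days 10.5, 12.5, 14.5, 16.5 and 18.5 (E10.5 to E18.5), postnatal day 1 (P1) and weeks 1, 2, 4 and 8 (1W to 8W). No strain is named, and nothing in the labels tells whether libraries of 1 age are from different animals or from pools, so the p-values rest on the spread among these libraries alone, which may be technical. mRNA was selected with poly-T beads and sequenced on an Illumina NovaSeq, and library totals ranged from 23164934 to 50519452 counts.

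Titin is a giant protein that spans from the Z-disc, the edge of the sarcomere, to the M-band at its centre, and acts there as a molecular spring and ruler. At the Z-disc, alpha-actinin crosslinks actin filaments and anchors titin, while telethonin caps the titin N-terminus. At the M-band, myomesins bridge titin and the thick myosin filaments. In heart muscle these proteins are laid down as myofibrils form before birth and go on accumulating as the cells enlarge after it.

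Expression levels are CPM, each count relative to its library's total after TMM (trimmed mean of M values) scaling. Where genes are compared with each other, levels are CPM per kb of merged exons. Changes between ages are log2 values ± SE, later over earlier. Rises and falls are those with an adjusted p under 0.05 in the quasi-likelihood test of edgeR, adjusted over all 19280 genes. The counts do not separate the isoforms of a gene. In bulk hearts, fewer cells of a type and less RNA per cell cannot be told apart. Of the 10 cardiomyocyte markers looked up, all 10 stood at 1 CPM or more at every age, and their summed level went from 10480 to 12583 CPM at E10.5 to 48507 to 51249 CPM at 8W. Of these markers, 7 rose and 2 fell from E10.5 to 8W, where 37.8% of all genes rose and 42.1% fell. The mean of Myl4 went from 2015 to 756.2 CPM and that of Slc8a1 from 1347.5 to 790.8 CPM, while Nkx2-5 had 45.65 and 45.91 CPM. Of 13 skeletal muscle markers, Myh2, Myh4, Pax7 and Myod1 were at 0 in all libraries of E10.5. At that age 4 stood at 1 CPM or more, Mylpf (mean 29.4 CPM), Tnni2 (15.6), Atp2a1 (5.83) and Tnnt3 (3.47). The summed level was 40.9 to 72.2 CPM at E10.5, 2.62 to 3.20 CPM at 1W and 6.06 to 8.46 CPM at 8W. From E10.5 to 8W, 4 of the 7 markers tested fell and 0 rose (42.1% and 37.8% of all genes). The summed level of 8 fibroblast markers was 813.1 to 1046 CPM at E10.5, 12086 to 12408 CPM at 1W and 2641 to 2946 CPM at 8W. Of the other 4 lists, the summed level of 8 endothelial markers stayed between 805.0 and 2186 CPM over all libraries and that of 6 smooth muscle markers between 1149 and 2396 CPM. The 7 macrophage markers all rose from E10.5 (5.92 to 6.99 CPM summed) to E12.5 (65.4 to 72.3 CPM). The 7 erythroid markers are given beside Ttn. The part of these cell types in the changes below was not tested. The fit without globin genes given there bears mainly on the scaling between libraries. Replicate 2 of E10.5 stood apart: the 9 genes held 1.68% of its counts, while replicates 1 and 3 had 4.52% and 3.24%. It also differed over all genes, with correlations of log2 CPM of 0.9745 and 0.9767 with replicates 1 and 3, against 0.9858 between those. Its mitochondrial share was 6.48%, against 4.56% and 4.11%. For many changes of the 9 genes from E10.5 the value without this library is therefore also given.

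RefSeq promoter entries (GRCm38.p6) were matched by symbol for 7 of the 9 genes, Ttn, Myom1, Myom3, Ldb3, Actn2, Mybpc3 and Nebl, but not for Tcap and Myom2. They gave 11 windows of 250 bases before to 50 after an annotated start, 4 of them for Nebl and 2 overlapping ones for Ldb3. The 250 bases before the start are shown for the 4 genes below because each holds, in capitals, a match to the consensus of MEF2 (the MEF2 site) or of serum response factor (the CArG box), both known regulators of muscle genes. The places are chr2:76982548-76982797 (minus strand) for Ttn, chr2:91117894-91118143 (plus strand) for Mybpc3, chr4:135759465-135759714 (plus strand) for Myom3 and chr14:34588682-34588931 (minus strand) for Ldb3.
Ttn: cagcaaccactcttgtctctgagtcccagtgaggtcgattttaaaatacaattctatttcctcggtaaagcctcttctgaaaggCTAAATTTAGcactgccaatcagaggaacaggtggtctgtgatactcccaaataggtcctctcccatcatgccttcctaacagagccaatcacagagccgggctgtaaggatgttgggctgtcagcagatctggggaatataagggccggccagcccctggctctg
Mybpc3: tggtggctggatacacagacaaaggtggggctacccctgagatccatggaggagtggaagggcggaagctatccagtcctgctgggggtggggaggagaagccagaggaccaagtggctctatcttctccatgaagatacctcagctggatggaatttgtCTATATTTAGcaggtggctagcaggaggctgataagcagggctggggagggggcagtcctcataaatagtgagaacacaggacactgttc
Myom3: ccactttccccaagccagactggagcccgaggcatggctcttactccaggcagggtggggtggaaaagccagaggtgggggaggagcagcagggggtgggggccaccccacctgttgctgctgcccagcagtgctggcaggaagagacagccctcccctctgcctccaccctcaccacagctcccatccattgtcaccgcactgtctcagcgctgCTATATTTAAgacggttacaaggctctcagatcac
Ldb3: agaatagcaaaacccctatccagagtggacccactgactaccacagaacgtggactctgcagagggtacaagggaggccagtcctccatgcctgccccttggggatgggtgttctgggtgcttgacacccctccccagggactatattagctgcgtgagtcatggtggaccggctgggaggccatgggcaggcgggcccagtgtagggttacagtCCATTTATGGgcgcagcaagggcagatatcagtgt
The MEF2 match of Ttn lay at −166 to −157 from the start, that of Mybpc3 at −90 to −81 and that of Myom3 at −35 to −26. The CArG box of Ldb3 also lay at −35 to −26 from the start shown, but at −109 to −100 from its other annotated start. Further ones lay at −99 to −90 of Myom1 and at −162 to −153 of 1 of the Nebl starts. That Myom1 window (chr17:71019307-71019606) lay inside the gene as annotated in GENCODE M21 (71002633 to 71126856). So did that Nebl window (chr2:17462807-17463106, in a gene from 17343909 to 17731464 on the minus strand). With both strands searched, a MEF2 site was in 3 of the 11 windows of these genes and in 3.19% of all 32841 RefSeq promoters of the same length. A CArG box was in 4 of the 11, among them both overlapping windows of Ldb3, and in 1.63%, and no MEF2 site overlapped a CArG box in these windows. The E-box CANNTG was found in 8 of the 11 against 72.3% of all promoters, GATAA in 4 against 25.4%, CATTCC in 2 against 14.7% and TATAAA in 0 against 13.6%. A match is a string of letters and does not show that a factor binds there.

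The first comparison asked whether the 9 genes differed between any ages. All 9 did (edgeR adjusted p between 9.8e-31 for Tcap and 1.6e-14 for Myom3), where 93.6% of all genes tested were called, so the count says little about these genes. Their ranges differed widely. The highest mean CPM was 4532 times the lowest for Myom2, 27.3 times for Tcap, 20.1 times for Myom3, 10.9 times for Ttn, 9.29 times for Actn2, 7.99 times for Mybpc3, 7.65 times for Myom1, 5.66 times for Ldb3 and 3.96 times for Nebl. The lowest mean was at E10.5 for 7 of them, at E12.5 for Ttn and at E16.5 for Nebl.

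**Figure D1:**
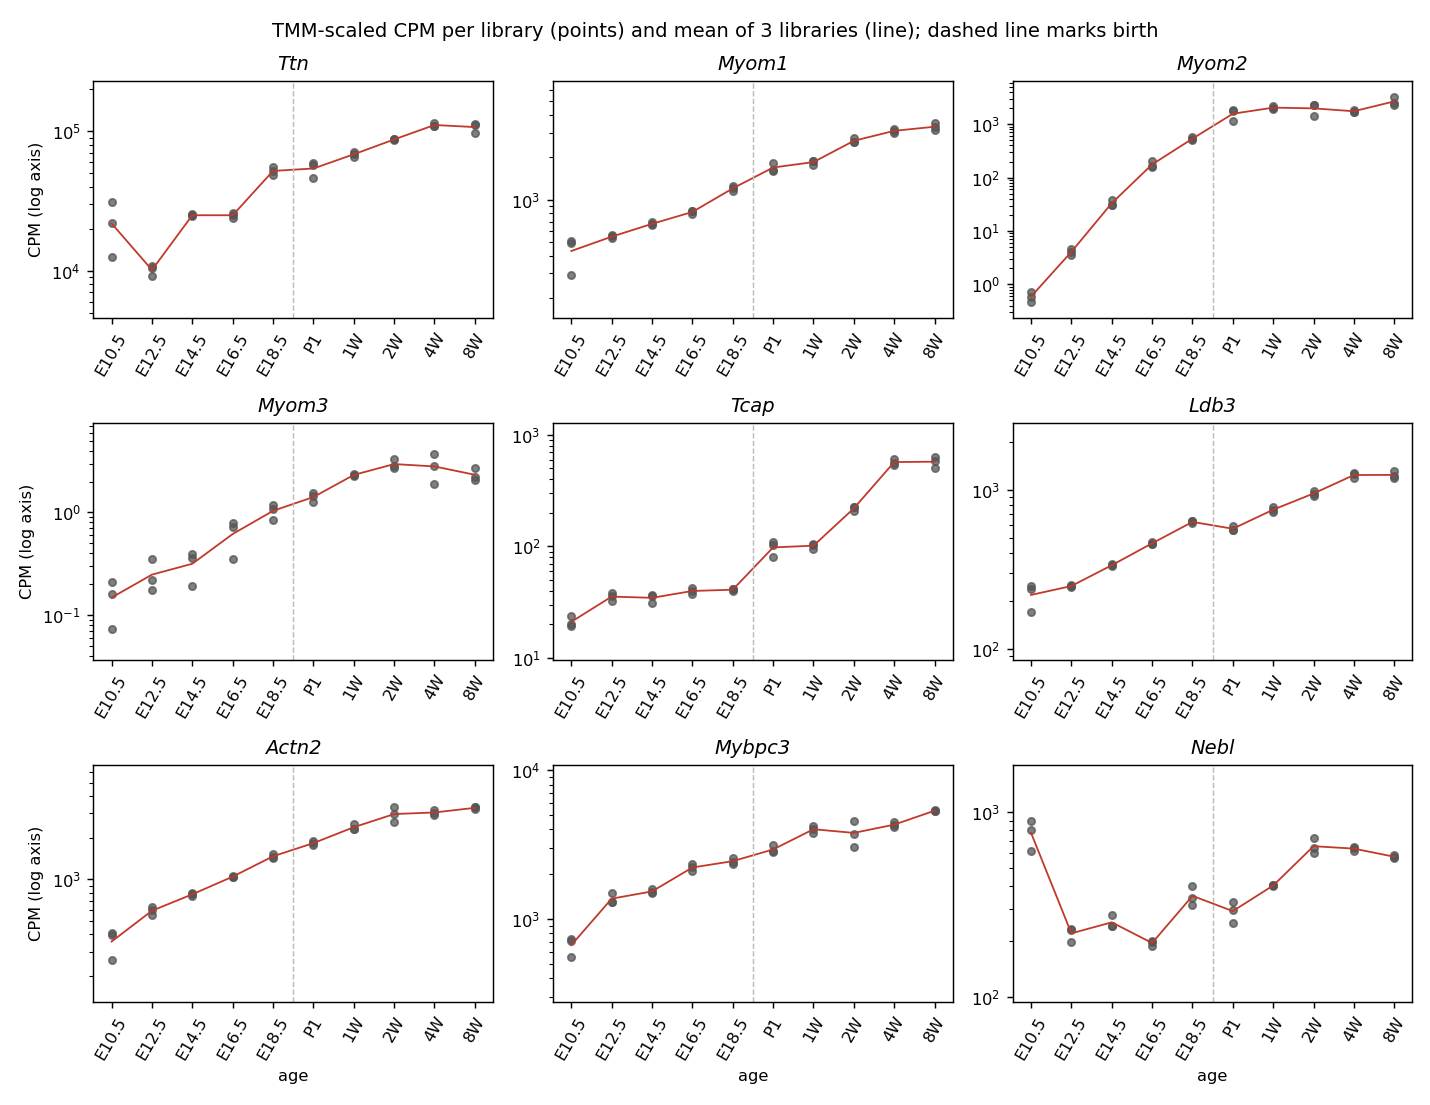
Level of each of the 9 genes (CPM, log axis, a scale of its own per gene) against age, with a point per library and a line through the mean of 3 libraries. Myom2 climbed from 0.590 CPM at E10.5 to 2675 CPM at 8W on average, Tcap had means of 34.6 to 41.0 CPM from E12.5 to E18.5 and then rose in steps, and Ttn and Nebl had their trough before birth.

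Ttn, on chromosome 2 (76703980 to 76982547, minus strand, GRCm38), had 116.825 kb of merged exons in 25 annotated transcripts. Its level at E10.5 was 31057, 12648 and 21927 CPM in the 3 libraries. At E12.5 it was 10753, 9238 and 10457 CPM, and at E14.5 24983, 24661 and 25476 CPM. The E12.5 libraries were the lowest of the series, and did not overlap with those of either neighbouring age, although E10.5 replicate 2 lay close to them. Ttn fell from E10.5 to E12.5 by 1.11 ± 0.17 on the log2 scale (edgeR adjusted p = 1.7e-06) and rose by 1.30 ± 0.17 to E14.5 (1.2e-06). Without E10.5 replicate 2 the fall was −1.38, without replicate 1 −0.77 and without replicate 3 −1.10, and the test was passed each time.

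A second rise of Ttn fell between E16.5 and E18.5. The 3 libraries of E16.5 had 25336, 23925 and 25822 CPM, and those of E18.5 51572, 48642 and 55838 CPM. The groups did not overlap, and the log2 change was 1.06 ± 0.17 (edgeR adjusted p = 2.8e-05). From E14.5 to E16.5 the change was 0.00 ± 0.16 (adjusted p = 1), with overlapping libraries. After birth the mean level went from 54137 ± 6910 CPM (SD, n = 3) at P1 through 68425 ± 2786 at 1W and 87443 ± 1187 at 2W to 110993 ± 3191 at 4W and 107228 ± 8086 at 8W. No single step after E18.5 passed the test, the largest being 0.35 ± 0.16 (adjusted p = 0.11) from 1W to 2W, while the sum of them from P1 to 8W did (0.99 ± 0.17, adjusted p = 6.2e-06) but not when libraries were scaled by their size alone (0.21, adjusted p = 0.30). Ttn reads made up 1.33% ± 0.11 (SD, n = 3) of all counts at E12.5 and 7.59% ± 0.16 at 4W.

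Most erythroid markers moved against Ttn at the 3 steps where Ttn passed the test. Their summed level was 1387 to 2107 CPM at E10.5, 8815 to 11090 CPM at E12.5, 4253 to 5680 CPM at E14.5, 18877 to 33522 CPM at E16.5 and 2318 to 6604 CPM at E18.5. Of the 7 markers, 6 rose and 1 fell to E12.5, 5 fell to E14.5, 7 rose to E16.5 and 7 fell to E18.5. With mitochondrial and globin genes taken out of the table before scaling, the Ttn changes to E12.5, to E14.5 and from E16.5 to E18.5 were −1.11, 1.30 and 1.05 (edgeR adjusted p = 1.9e-06, 1.6e-06 and 3.3e-05). Removing these genes bears mainly on the scaling between libraries. It does not remove other RNA of the same cells, and the part of these cells was not tested.

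The steps of Ttn before birth were set beside those of other long genes. The 414 genes with over 15 kb of merged exons had a median log2 change of −0.13 from E10.5 to E12.5, 0.23 to E14.5, −0.20 to E16.5 and 0.25 to E18.5. The corresponding Ttn changes were −1.11, 1.30, 0.00 and 1.06. Nebl, whose merged exons come to 15.235 kb, changed by −1.81, 0.20, −0.37 and 0.85. The long genes thus had the sign of the Ttn change in 3 of the 4 steps, with smaller values, but not from E14.5 to E16.5, where the value for Ttn was 0.00. They had the sign of the Nebl change in all 4. Of the long genes, 42.5% had a change above 0 to E12.5, 82.1% to E14.5, 24.4% to E16.5 and 80.4% to E18.5. Genes of up to 2 kb had medians of −0.13, −0.11, 0.13 and −0.14 in these steps. From E12.5 on, the classes of length between lay in order between these medians. This split by length was made after the values of Ttn and Nebl were seen, and its part in their changes was not tested.

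At the M-band, the 3 myomesin genes differed in timing and level. Myom1, which encodes myomesin-1, the general M-band crosslinker, was well above Myom2 and Myom3 at E10.5, the age of its own lowest mean. It had 495.2, 290.4 and 511.9 CPM at E10.5 and 3155, 3495 and 3274 CPM at 8W. With TMM scaling the 8W libraries all lay above those of every age up to 2W, but as shares of all counts they overlapped with those of 2W. Of the 9 steps between neighbouring ages, Myom1 rose in 4 and fell in 0, with its largest log2 changes from E16.5 to E18.5 (0.56 ± 0.12, edgeR adjusted p = 6e-04), from 1W to 2W (0.50 ± 0.12, 0.0011) and from E18.5 to P1 (0.49 ± 0.12, 0.00091). The first step, E12.5 over E10.5 (0.34 ± 0.12, adjusted p = 0.013) did not hold without E10.5 replicate 2 (0.12, adjusted p = 0.14), nor did that from 1W to 2W with library size alone (0.22, adjusted p = 0.2).

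Myom2 encodes myomesin-2, also called M-protein, a crosslinker of adult heart and fast skeletal muscle. At E10.5 it was barely detected, with 0.7105, 0.476 and 0.5842 CPM from 22, 16 and 24 counts. It stood at 3.57, 4.54 and 4.09 CPM at E12.5 and at 30.4, 30.4 and 38.7 CPM at E14.5. By E18.5 the libraries had 573.9, 530.9 and 501.6 CPM, and at 8W 2491, 3215 and 2319 CPM. Each age up to P1 lay above the one before with no overlap of libraries. Myom2 rose in all 5 steps up to P1: 2.79 ± 0.26 on the log2 scale from E10.5 to E12.5 (edgeR adjusted p = 8.2e-10), 3.02 ± 0.18 to E14.5, 2.41 ± 0.17 to E16.5, 1.60 ± 0.16 to E18.5 and 1.55 ± 0.16 to P1 (adjusted p between 2.5e-12 and 8e-08 for the last 4). It did not pass the test in the next 3 steps, and P1 and 2W each had 1 library well below the other 2 (1171 CPM at P1 and 1433 CPM at 2W, against 1729 to 2261 CPM in the others of these ages). The later change from 4W to 8W (0.61 ± 0.16, adjusted p = 0.0058) missed the threshold without 8W replicate 2 (0.46, adjusted p = 0.052). From E10.5 to 8W Myom2 rose by 12.14 ± 0.27 (adjusted p = 2.1e-24), and by 12.03 without E10.5 replicate 2.

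Myom3, which encodes the third myomesin, known from slow and intermediate skeletal fibres, stayed low. It had 0.148 ± 0.069 CPM (SD, n = 3) at E10.5, from 15 counts over the 3 libraries, and its highest mean was 2.97 ± 0.33 CPM at 2W. Libraries of neighbouring ages overlapped at 5 of the 9 steps, and the 2 steps that passed the test, E14.5 to E16.5 (0.97 ± 0.35, edgeR adjusted p = 0.042) and P1 to 1W (0.72 ± 0.28, 0.045), each lost the call without any of several libraries, with adjusted p up to 0.21 and 0.12. From E10.5 to 8W the log2 change was 3.99 ± 0.38 (adjusted p = 1.8e-11), and 4.34 without E10.5 replicate 2.

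The makeup of the 3 myomesin transcripts was compared as shares of their summed CPM per kb. Myom2 held 0.166% ± 0.029 (SD, n = 3) at E10.5 and 0.869% ± 0.080 at E12.5. It then held 5.49% ± 0.85 at E14.5 and 20.2% ± 1.7 by E16.5. At E18.5 its share was 34.4% ± 1.5, at P1 51.8% ± 5.2 and at 1W 56.5% ± 2.3. In all 3 libraries of 1W Myom2 was thus the larger of the pair, while at 4W it was the smaller in all 3, with 40.0% ± 0.96. At 8W the shares of Myom2 (45.5% to 52.1%) and Myom1 (47.9% to 54.4%) overlapped. The mean share of Myom3 was 0.104% or less at every age. Relative to Myom1 in the same library, Myom2 rose by 8.28 ± 0.17 (log2) from E10.5 to E18.5 (limma adjusted p = 5.1e-26), where 7.58% of all genes tested rose relative to Myom1. It changed by −0.18 ± 0.17 from P1 to 8W (adjusted p = 0.32). Within that span it fell from 1W to 2W (−0.58 ± 0.17, limma adjusted p = 0.0054) and rose from 4W to 8W (0.51 ± 0.17, 0.041). The steps from P1 to 1W (0.27 ± 0.17, adjusted p = 0.25) and from 2W to 4W (−0.39 ± 0.17, 0.093) did not pass. At 2W the Myom2 share was 38.2% in replicate 2, against 50.5% and 51.05% in replicates 1 and 3. These ratios do not depend on the scaling between libraries.

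**Figure D2:**
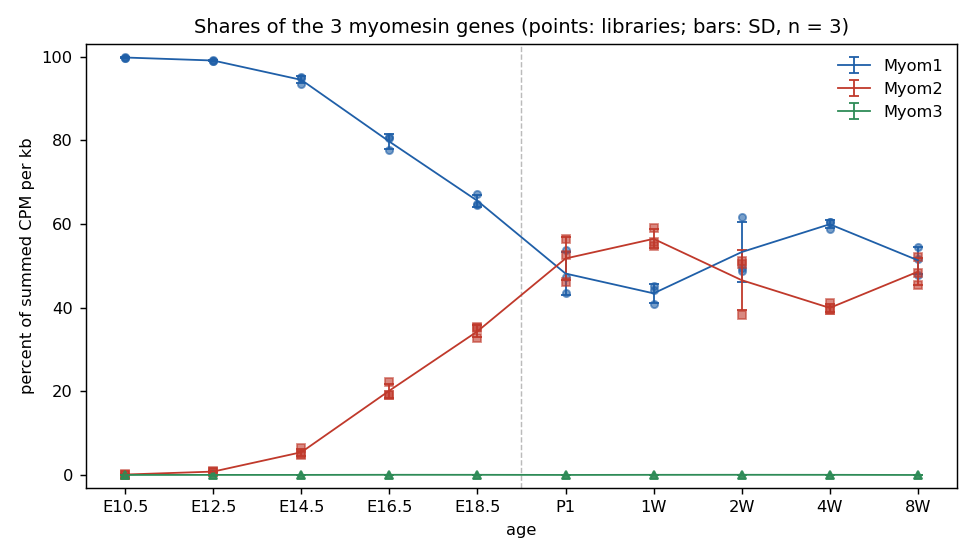
Share of each myomesin gene in the summed CPM per kb of the 3 (percent) against age, with points for libraries and bars for the SD (n = 3). The mean Myom2 share went from 0.166% at E10.5 to 56.5% at 1W and 48.6% at 8W, and the mean share of Myom3 stayed at 0.104% or less.

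Tcap, which encodes telethonin, the small cap on the titin N-terminus at the Z-disc, rose mostly after E18.5. The gene is on chromosome 11 (98383811 to 98384953, plus strand), with 0.948 kb of exons. It had 41.8, 39.5 and 41.5 CPM at E18.5, 80.4, 110.7 and 103.1 CPM at P1, and 103.9, 106.0 and 94.8 CPM at 1W. At 2W the libraries had 227.1, 223.6 and 207.9 CPM, at 4W 559.2, 541.5 and 612.0 CPM and at 8W 501.9, 637.8 and 586.3 CPM. Levels thus stepped up 3 times after E18.5 with no overlap of libraries, while P1 overlapped with 1W and 4W with 8W. The log2 changes were 1.26 ± 0.10 from E18.5 to P1 (edgeR adjusted p = 2.6e-11), 1.11 ± 0.10 from 1W to 2W (3.9e-10) and 1.38 ± 0.10 from 2W to 4W (8.4e-12). Between E12.5 and E18.5 no step of Tcap passed the test, with means of 34.6 to 41.0 CPM. The early rise from E10.5 to E12.5 (0.75 ± 0.10, adjusted p = 2.8e-07) was 0.86 without E10.5 replicate 2. From P1 to 8W Tcap rose by 2.55 ± 0.11 (adjusted p = 6.2e-20), a call that held under each of the 4 scalings tried.

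Actn2 encodes the alpha-actinin of cardiac muscle, the main crosslinker of the Z-disc. It rose in each of the first 7 steps, from E10.5 to 2W, by 0.32 to 0.74 on the log2 scale. With library size alone 3 of these 7 calls held, and those from E14.5 to E16.5 (adjusted p = 0.097), E18.5 to P1 (0.2), P1 to 1W (0.082) and 1W to 2W (0.87) were lost. The 3 libraries had 406.1, 259.7 and 398.3 CPM at E10.5, 1531, 1419 and 1458 CPM at E18.5 and 3209, 3328 and 3349 CPM at 8W. Libraries of neighbouring ages overlapped at 1 step alone, from 2W to 4W. Its weakest calls were E18.5 to P1 (0.32 ± 0.11, edgeR adjusted p = 0.019) and 1W to 2W (0.32 ± 0.11, 0.024), which each missed the threshold without any of 3 or 4 libraries, with adjusted p up to 0.07 and 0.17. The change between E12.5 and E14.5 missed it without E12.5 replicate 1 (0.34, adjusted p = 0.057). From E10.5 to 8W Actn2 rose by 3.22 ± 0.12 (adjusted p = 2.5e-22), and by 3.04 without E10.5 replicate 2.

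Ldb3 encodes ZASP, also called cypher, a PDZ-LIM protein that binds alpha-actinin and titin at the Z-disc. Its levels were 237.1, 171.7 and 247.4 CPM at E10.5 and 250.7, 252.1 and 243.9 CPM at E12.5, which overlapped. They were 632.0, 615.2 and 637.3 CPM at E18.5, 589.6, 559.0 and 558.0 CPM at P1 and 1180, 1270 and 1258 CPM at 4W. Ldb3 thus paused at birth, where the P1 libraries all lay below those of E18.5 but the change did not pass the test (−0.14 ± 0.09, edgeR adjusted p = 0.20). It rose in 6 of the 9 steps, by 0.43 to 0.46 (log2) in each of the 3 steps from E12.5 to E18.5 and by 0.34 to 0.40 in each of the 3 from P1 to 4W. With library size alone the changes from 1W to 2W (0.05, adjusted p = 0.73) and from 2W to 4W (0.16, 0.25) did not pass the test. The change from 4W to 8W was 0.00 ± 0.09 (adjusted p = 1).

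Nebl, on chromosome 2 (17343909 to 17731464, minus strand), encodes nebulette, a cardiac relative of nebulin that links the Z-disc to actin, and the same locus has a shorter non-muscle product (LASP2). The counts pool its 13 annotated transcripts. Unlike the others, Nebl had its highest level at the first age: 898.5, 615.7 and 802.8 CPM at E10.5, against 232.9, 196.9 and 230.6 CPM at E12.5 and 187.1, 197.1 and 201.1 CPM at E16.5. All 3 libraries of E10.5 lay far above those of E12.5. The fall was −1.81 ± 0.11 on the log2 scale (edgeR adjusted p = 7.4e-15), and −1.95 without E10.5 replicate 2. Nebl then rose from E16.5 to E18.5 (0.85 ± 0.11, adjusted p = 8e-07), from P1 to 1W (0.46 ± 0.11, 0.0011) and from 1W to 2W (0.71 ± 0.11, 5.9e-06), and reached 653.6 ± 62.9 CPM (SD, n = 3) at 2W. At 8W it had 561.1, 573.3 and 584.0 CPM, all below the 3 libraries of E10.5 (−0.43 ± 0.11, adjusted p = 0.00056). Smaller falls from E14.5 to E16.5 (−0.37 ± 0.11, adjusted p = 0.010) and from E18.5 to P1 (−0.27 ± 0.11, 0.043) each lost the call without single libraries, with adjusted p up to 0.073 and 0.27.

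Mybpc3 encodes cardiac myosin-binding protein C, which binds both titin and myosin along the thick filament and tunes contraction. It had 716.3, 555.8 and 731.8 CPM at E10.5, 1306, 1498 and 1306 CPM at E12.5 and 5323, 5392 and 5300 CPM at 8W. The E12.5 libraries all lay above those of E10.5, and with TMM scaling the 8W libraries lay above all others of the series. As a share of all counts, its highest mean was instead at 1W (0.390%, against 0.328% at 8W). Its largest step was the first (1.04 ± 0.11 on the log2 scale, edgeR adjusted p = 1.2e-09, and 0.92 without E10.5 replicate 2), followed by E14.5 to E16.5 (0.53 ± 0.11, 3e-04) and P1 to 1W (0.45 ± 0.11, 0.0012). At 2W its libraries spread from 3039 to 4582 CPM, and overlapped with those of 1W and 4W. The rise from 4W to 8W (0.31 ± 0.11, adjusted p = 0.032) missed the threshold without any single one of the 6 libraries. It also missed it with library size alone (0.16, adjusted p = 0.36) and with upper quartile factors (0.26, adjusted p = 0.052).

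Over the 81 changes of 9 genes in 9 steps, 38 were called rises and 4 were called falls, 3 of Nebl and 1 of Ttn. From E10.5 to E12.5, 5 members rose and 2 fell, where 31% of all genes tested rose and 24.4% fell. From E12.5 to E14.5 4 rose (10.5% of all genes) and 0 fell (7.8%). The step to E16.5 had 5 rises (14.1%) and 1 fall (12%), and that to E18.5 6 rises (13%) and 0 falls (11.2%). These 3 steps before birth hence held 15 of the 38 rises. Around birth, from E18.5 to P1, 4 rose (19.8%) and 1 fell (19%). From P1 to 1W 5 rose (18.8%) and 0 fell (17%), and from 1W to 2W again 5 rose (15.5%) and 0 fell (14.1%). The last steps had fewer calls, with 2 rises (15.8%) and 0 falls (13%) to 4W, of Tcap and Ldb3, and 2 rises (11.8%) and 0 falls (12.1%) to 8W, of Myom2 and Mybpc3. With libraries scaled by their size alone the rises were 3, 2, 1 and 1 in the 4 steps after P1, and 1 fall was called in each of the steps to 2W and to 4W.

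**Figure D3:**
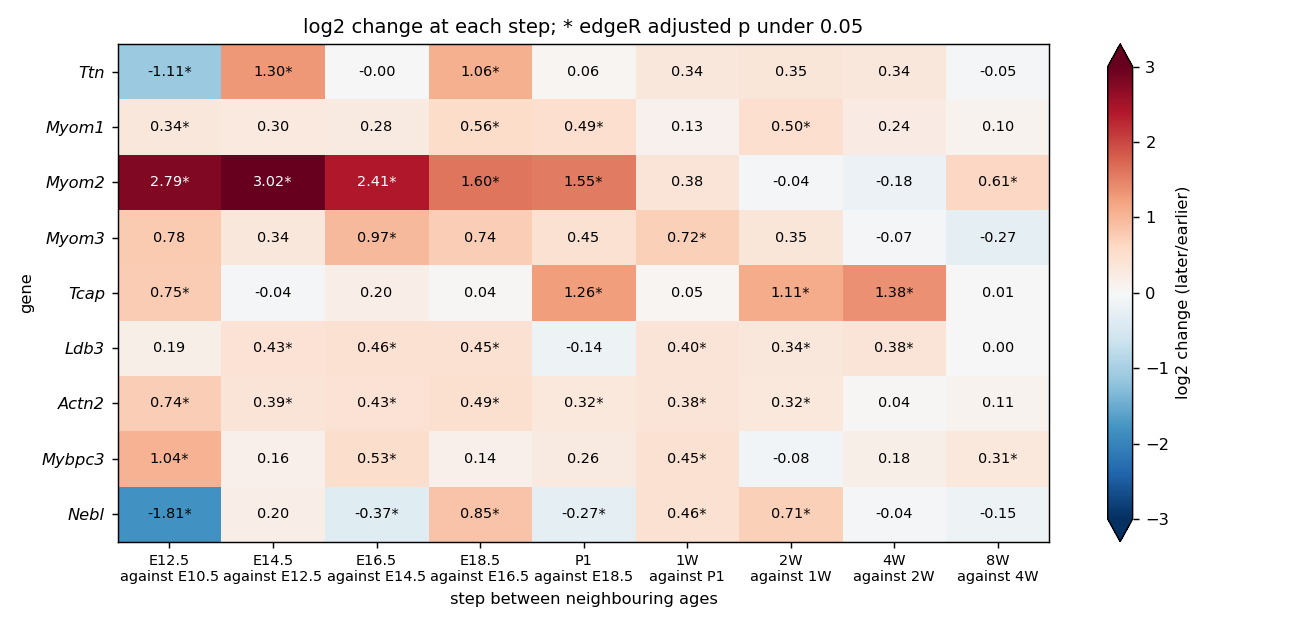
The log2 change of each gene at each step between neighbouring ages (colour and number), with an asterisk where the edgeR adjusted p was under 0.05. Blue falls stand in the first column for Ttn (−1.11) and Nebl (−1.81), and the strongest reds are the Myom2 steps up to P1.

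Over the wide comparisons the 9 genes moved mostly up. From E10.5 to E18.5 8 rose and Nebl fell (−1.14 ± 0.11, edgeR adjusted p = 7.4e-11), where 32.9% of all genes rose and 30.4% fell. The rises ran from 0.96 ± 0.10 (log2) for Tcap through 1.25 ± 0.17 for Ttn to 9.82 ± 0.26 for Myom2. From E10.5 to 8W again 8 rose and Nebl fell (37.8% and 42.1% of all genes). The rises of the other 6 beside Myom2 and Myom3 were 2.29 ± 0.17 for Ttn, 2.5002 ± 0.092 for Ldb3, 2.94 ± 0.12 for Myom1, 2.9985 ± 0.115 for Mybpc3, 3.22 ± 0.12 for Actn2 and 4.77 ± 0.12 for Tcap. The members' median change was 2.999, against −0.15 over all genes tested, and every call of both comparisons held without E10.5 replicate 2. Without that library Ttn rose by 0.98 to E18.5 and by 2.02 to 8W, and Tcap by 1.06 and 4.88. From P1 to 8W all 9 rose with TMM scaling (31.8% of all genes rose and 35.1% fell), by 0.73 to 2.55, but with library size alone only Tcap and Ldb3 passed the test, and the values of Myom2 (−0.01) and Myom3 (−0.05) turned below 0. The Myom3 rise (0.73, adjusted p = 0.027) also missed the threshold without P1 replicate 1 (0.05), without P1 replicate 3 (0.082), without 8W replicate 2 (0.1) and with upper quartile factors (0.1). Scaling by library size alone shifted the median change of all genes by −0.77 in that comparison and by −1.04 from E10.5 to 8W, while the share of mitochondrially encoded RNA ranged from 2.735% to 19.2% of the counts over the libraries. These comparisons share libraries with each other and with the steps.

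To compare the genes with titin free of that scaling, counts were set relative to Ttn in the same library and tested with limma over all genes. At the first step the others moved apart from titin: from E10.5 to E12.5, 7 of the 8 rose relative to Ttn, by 1.22 ± 0.16 (log2, Ldb3) to 3.78 ± 0.20 (Myom2), where 66% of all genes did, and Nebl fell (−0.78 ± 0.15, limma adjusted p = 2.5e-05), where 0.337% did. From E12.5 to E14.5, 7 fell relative to Ttn (80.2% of all genes) and Myom2 alone rose (1.72 ± 0.20, adjusted p = 2.9e-08; 0.348% of all genes). In both steps most genes of the table moved the same way relative to Ttn, which itself fell and then rose. Every call of the first step held without E10.5 replicate 2.

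From E10.5 to E18.5, 4 of the 8 rose relative to Ttn (8.07% of all genes) and 1 fell (71.8%). The rises were those of Myom2 (8.47 ± 0.20), Myom3 (1.45 ± 0.43), Actn2 (0.74 ± 0.16, limma adjusted p = 9.5e-05) and Mybpc3 (0.54 ± 0.19, 0.0088), the last of which did not hold without E10.5 replicate 1 (0.30, adjusted p = 0.088). Nebl fell by 2.47 ± 0.15 (adjusted p = 3.5e-16). Ldb3 (0.20 ± 0.16, adjusted p = 0.24) passed the test without E10.5 replicate 2 (0.38, 0.0094), and Tcap (−0.38 ± 0.22, 0.12) passed it without replicate 1 (−0.71, 0.0022). From P1 to 8W Tcap alone rose relative to Ttn (1.57 ± 0.22, limma adjusted p = 1.5e-07; 6.28% of all genes) and 0 fell (66.4%). The other 7 had values between −0.28 and 0.13 with standard errors of 0.15 to 0.43, and none passed. Over the whole course from E10.5 to 8W, 6 of the 8 rose relative to Ttn (8.58% of all genes), from 0.60 ± 0.15 for Myom1 and 0.63 ± 0.19 for Mybpc3 to 2.38 ± 0.22 for Tcap and 9.73 ± 0.20 for Myom2. Nebl fell by 2.80 ± 0.15 (adjusted p = 4.3e-19; 81.6% of all genes fell), and Ldb3 did not pass (0.13 ± 0.16, adjusted p = 0.42) except without E10.5 replicate 2 (0.32, 0.024).

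**Figure D4:**
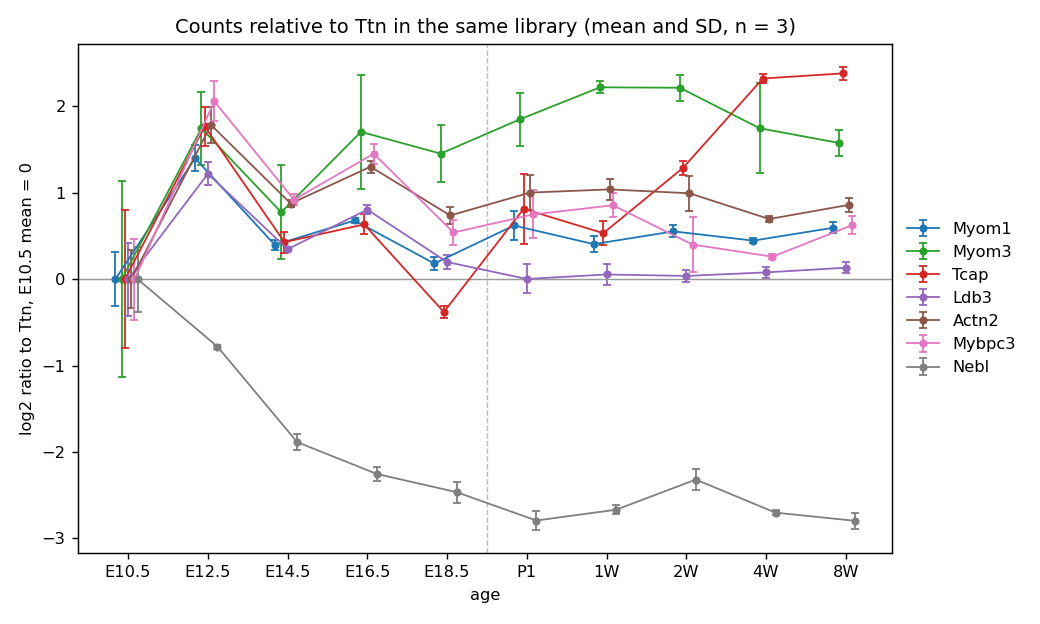
Log2 ratio of each gene's counts to those of Ttn in the same library against age, set to 0 at the E10.5 mean, with bars for the SD (n = 3) and Myom2 left out for its range. All but Nebl stand above 0 at E12.5, the trough of Ttn, Tcap reaches 2.38 at 8W and Nebl −2.80.

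Per kb of merged exons, Mybpc3 had the highest mean level of the 9 from E12.5 on, although its libraries overlapped at 2W with those of Actn2 and, in replicate 3 (730.0 against 757.4 CPM per kb), fell below Ttn, and Myom3 the lowest at every age. At E10.5 Ttn (187.3 ± 78.8 CPM per kb, SD, n = 3) and Mybpc3 (160.5 ± 23.4) led with overlapping libraries, followed by Actn2 (93.5 ± 21.7), Nebl (50.7 ± 9.4), Myom1 (41.4 ± 11.8), Ldb3 (35.8 ± 6.7) and Tcap (22.3 ± 2.7). Of these, Nebl, Myom1 and Ldb3 all overlapped with each other. Myom2 (0.067 ± 0.013) and Myom3 (0.024 ± 0.011) came last. At E18.5 the order was Mybpc3 (587.7 ± 30.4), Ttn (445.3 ± 31.0), Actn2 (387.2 ± 14.95), Myom1 (115.3 ± 5.0), Ldb3 (102.9 ± 1.9), Myom2 (60.5 ± 4.1), Tcap (43.2 ± 1.3), Nebl (23.1 ± 2.8) and Myom3 (0.172 ± 0.029), with no overlap between neighbours. At 8W Mybpc3 (1282 ± 11) stood clear above Ttn (917.8 ± 69.2) and Actn2 (868.4 ± 19.9), which overlapped. Tcap had moved up to the fourth place (606.9 ± 72.4), ahead of Myom1 (316.3 ± 16.5) and Myom2 (302.1 ± 53.7), which overlapped, then Ldb3 (202.7 ± 10.5), Nebl (37.6 ± 0.75) and Myom3 (0.386 ± 0.057). With the length of the longest transcript in place of merged exons, Actn2 had the highest mean at 2W and Ttn at 4W, each overlapping with Mybpc3. By that length Actn2 and Ttn also changed places at E18.5 (487.7 and 486.9 CPM per kb, overlapping) and at 8W (1094 and 1004, not overlapping), Nebl and Tcap changed places at E18.5 (43.5 and 43.2, overlapping), and Tcap and Myom1 overlapped at 8W. The E10.5 order stayed, but Mybpc3 and Actn2, and Actn2 and Nebl, then overlapped, while Myom1 and Ldb3 did not.

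The other genes of the Z-disc, taken from a list of 29 of which 28 were tested, moved in both directions. From E10.5 to 8W 19 rose and 7 fell (median log2 change 1.45, against −0.15 over all genes), where 37.8% of all genes rose and 42.1% fell. From E10.5 to E18.5 17 rose and 7 fell (median 0.54 against −0.0013), or 6 without E10.5 replicate 2, where 32.9% and 30.4% of all genes did. With library size alone 12 fell from E10.5 to 8W. That library changed no other count of the 3 lists given here for these comparisons. With the largest changes from E10.5 to 8W, Xirp2, an actin-binding repeat protein, rose by 10.52 ± 0.35 (edgeR adjusted p = 9.4e-18; 0.656 CPM at E10.5 and 964.6 at 8W). Myot, which encodes myotilin, an alpha-actinin partner, rose by 7.47 ± 0.30 (3.7e-20; 0.219 to 37.7 CPM). Myoz1, the calsarcin of fast skeletal muscle, fell by 6.85 ± 0.45 (2.3e-14; 13.0 to 0.106 CPM), and Actn3, the alpha-actinin of fast skeletal fibres, fell by 2.78 ± 0.31 (7.7e-10; 4.84 to 0.709 CPM). The pair of falling skeletal genes stood beside the 4 falls among the skeletal muscle markers given above, whose part was not tested.

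Of 16 other M-band and thick filament genes, 13 rose and 2 fell from E10.5 to 8W (median 2.52 against −0.15 over all genes, of which 37.8% rose and 42.1% fell). From E10.5 to E18.5 12 rose and 2 fell (median 0.76 against −0.0013, with 32.9% and 30.4% of all genes). Ckm, muscle creatine kinase, which is bound at the M-band, rose by 10.97 ± 0.19 (edgeR adjusted p = 1.7e-30), with 1.28 ± 0.42 CPM (SD, n = 3) at E10.5, 201.3 ± 19.0 at E14.5, 1443 ± 169 at E16.5 and 2518 ± 48 at 8W. Mybpc2, the fast skeletal paralog of Mybpc3, rose by 9.87 ± 0.55 (2.1e-13) from 0.055 to 56.5 CPM, while Mybpc1, the slow skeletal paralog, fell by 4.53 ± 0.39 (2e-12) from 7.34 to 0.318 CPM. Trim55, which encodes MuRF2, a ubiquitin ligase at the titin M-band end, passed the test narrowly from E10.5 to 8W (−0.16 ± 0.07, adjusted p = 0.044), with means of 144.4 CPM at E10.5, 252.0 CPM at P1 and 129.0 CPM at 8W. The falls from E10.5 to 8W were 1 in place of 2 in 18 of the 30 fits that left out a library.

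Of 8 partners of the titin I-band, the elastic stretch, and its splicing regulator, 7 were tested. From E10.5 to 8W 5 rose and 1 fell (median 1.30), or 2 in 6 of the 30 fits that left out a library, where 37.8% of all genes rose and 42.1% fell. From E10.5 to E18.5 5 rose and 2 fell (median 1.11), with 32.9% and 30.4% of all genes. Ankrd23, an ankyrin repeat protein that binds the titin spring, rose by 7.78 ± 0.26 (edgeR adjusted p = 2.6e-18), from 2.498 ± 0.584 CPM (SD, n = 3) at E10.5 to 552.4 ± 15.1 at 8W. Rbm20, the splicing factor that governs titin isoforms, rose by 2.93 ± 0.11 (2.3e-22), from 69.7 ± 15.1 CPM at E10.5 to 388.7 ± 11.9 at E18.5 and 528.6 ± 21.0 at P1, with means between 450.3 and 531.7 CPM afterwards. Hsp90aa1, a chaperone of muscle assembly and of cells in general, fell by 2.02 ± 0.12 (9.2e-17), from 703.5 ± 92.4 CPM to 172.9 ± 14.6. From P1 to 8W, where 31.8% of all genes rose and 35.1% fell, 15 rose and 8 fell in the Z-disc list, 13 and 2 in the M-band list (1 fall in 19 of the 30 fits that left out a library) and 4 and 0 in the I-band list, but 10 and 14, 5 and 4, and 2 and 3 with library size alone.

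For each member, the genes whose mean log2 CPM followed it most closely over the 10 ages were looked up among 10373 genes by Pearson correlation, as a description over 10 points that share age, depth and cell makeup. These 10373 genes reached a mean of 10 CPM at their highest age, and genes with gene model, clone or mitochondrial names were left out. Ttn was most like Myocd (r = 0.983), which encodes the muscle coactivator myocardin, then Kbtbd12 and Usp25. Myom1 was most like Eif4e3 (0.998), Pln, which encodes phospholamban, and Rcan2. Myom2 was most like Rbm20 (0.996), the titin splicing factor, then Dhrs7c and Nrbp2. Myom3 was most like Als2cl (0.995), Neat1 and Steap4, and Tcap like Csdc2 (0.992), Thrsp and Rab12. For Ldb3 they were Fsd2 (0.996), Dmpk and Myo5b, and for Actn2 Coq8a (0.997), Coro6 and Mb, which encodes myoglobin. For Mybpc3 they were Cerk (0.996), Tnni3k, a cardiac kinase that binds troponin I, and Crat, and for Nebl Taok1 (0.988), Larp4 and Gabpa. Among the members themselves r ran from 0.766 to 0.988 between the 8 other than Nebl, and from 0.138 (Myom2) to 0.575 (Ttn) between Nebl and the others. Many genes reached such values, and 197 genes shared the exact rank order of Myom1 over the ages.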

How the data were processed

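RNA sequencing of mouse hearts was available as a table of expected counts that the authors deposited for all 30 libraries (10 ages of 3, grouped by title). The submitters' processing notes list GRCm38 and mm10 as builds, and as tools STAR 2.5.3a and fastp 0.18.0. How reads were counted, with which annotation release and with or without strand, is not given in the sources used here. Thus isoforms, antisense and overlapping genes cannot be separated, and reads shared by paralogs may be split. Of the expected counts deposited, 6.94% were not whole (tolerance 1e-06), and all were rounded. Symbols, exons and coordinates came from GENCODE M21 by identifier without its version (48058 of 48820 genes, of which 40606 had the same version). The rest held 0.23% of the counts.

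edgeR 4.0.16 in R 4.3.3 kept 19280 genes with filterByExpr, scaled by TMM, and tested all 30 libraries as 10 group means (20 residual degrees of freedom, quasi-likelihood, robust) with Benjamini-Hochberg adjustment over all genes of each of 13 comparisons. Ratios to Ttn or Myom1 were tested with limma 3.58.1 (trend, robust) on log2((count + 0.5)/(reference count + 0.5)). CPM per kb used merged exons. Values after ± are SE for changes and SD (n = 3) for levels. The genes and lists were chosen with earlier results of these data known. All 9 genes are named in every comparison. Of each list, the 2 largest rises and 2 largest falls called from E10.5 to 8W are named, and for each gene the 3 with the highest correlation among those reaching 10 CPM. Genes with gene model, clone or mitochondrial names were left out of that search. The fits were tested on simulated data. Plots and shares were made in Python 3.11.15 (numpy 2.4.6, pandas 2.3.3, matplotlib 3.10.9). Alternatives were scaling by library size alone, RLE or upper quartile factors, no filter, 1 CPM in 3 libraries, no mitochondrial or globin genes, DESeq2 1.42.0, the 6 samples of a comparison alone, a replicate block, Actn2 as reference, 2 counts added, no trend, other lengths, medians, Spearman correlation and each library left out.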

Additional observations from a re-analysis of the deposited data

How the results depend on the processing

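Among the 9 genes, the 8 rises and 1 fall from E10.5 to E18.5 and from E10.5 to 8W kept their counts under every alternative run, as did the 9 genes called over all ages. Library size alone gave 3 rises from E14.5 to E16.5, 3 from P1 to 1W, 2 and 1 fall from 1W to 2W, 1 and 1 fall from 2W to 4W, 1 from 4W to 8W and 2 from P1 to 8W, where the values of Myom2 (−0.0072) and Myom3 (−0.0497) reversed. Upper quartile factors gave 1 rise from 4W to 8W. With only the 6 samples of a comparison in the fit, 7 rose from E12.5 to E14.5, 0 fell from E18.5 to P1 and 1 fell from 4W to 8W. With single libraries left out, falls ranged from 0 to 1 from E14.5 to E16.5 and from 0 to 2 from E18.5 to P1, and rises from 2 to 4 from 2W to 4W and from 0 to 2 from 4W to 8W.

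In the lists, library size alone gave 14 falls of Z-disc genes from P1 to 8W and 12 from E10.5 to 8W, 5 rises and 4 falls of M-band genes from P1 to 8W, and for I-band partners 2 rises and 3 falls from P1 to 8W and 3 rises and 2 falls from E10.5 to 8W. Falls of M-band genes were 1 from E10.5 to E18.5 (1 CPM filter, or 6 samples), 1 from P1 to 8W (no filter, or 6 samples) and 1 from E10.5 to 8W (no filter, no mitochondrial or globin genes, or 6 samples), and 1 to 2 in the last pair with single libraries left out. Falls of I-band partners were 1 from P1 to 8W with upper quartile factors, and from E10.5 to 8W 2 with upper quartile factors, the 1 CPM filter, DESeq2 or 6 samples and 1 to 2 with single libraries left out.

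Set against Actn2 in place of Ttn, 2 members were higher and 3 lower from E10.5 to E12.5, 2 lower from E12.5 to E14.5, 1 higher and 5 lower from E10.5 to E18.5, 2 higher from P1 to 8W, and 2 higher and 4 lower from E10.5 to 8W. The signs reversed for Myom1 (−0.3849), Myom3 (−0.039), Tcap (−0.0149) and Ldb3 (−0.564) from E10.5 to E12.5, Ldb3 (0.0367) from E12.5 to E14.5, Myom1 (−0.5554), Ldb3 (−0.5387) and Mybpc3 (−0.1963) from E10.5 to E18.5, Myom1 (0.1158), Mybpc3 (0.0177) and Nebl (0.1391) from P1 to 8W, and Myom1 (−0.2653), Ldb3 (−0.7272) and Mybpc3 (−0.2352) from E10.5 to 8W. By construction these are changes against another gene. With single libraries left out, the ratio to Ttn from E10.5 to E18.5 ran from −0.7124 to 0.0644 for Tcap and from −0.0335 to 0.3818 for Ldb3, with 1 to 2 members lower. From P1 to 8W it ran from −0.1039 to 0.0596 for Myom1, −0.4494 to 0.0139 for Myom2, −0.2142 to 0.0351 for Mybpc3 and −0.0593 to 0.0461 for Nebl, and from E10.5 to 8W from −0.0993 to 0.3160 for Ldb3.

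Without exon lengths, the Myom2 share was 0.736% (E12.5), 17.7% (E16.5), 30.7% (E18.5), 52.4% (1W), 36.1% (4W) and 44.5% (8W), and with the longest transcript 38.6% at 4W. By Spearman correlation, 1 of the 27 genes named as most like a member stayed among the 3 most like. At its highest value 197 genes tied for Myom1 and for Actn2, 80 for Tcap, 57 for Ldb3, 14 for Mybpc3 and 12 for Myom3, which left these without an order. For Ttn 3 genes tied (Kmt2d, Zfp652 and Klhdc7a) and for Myom2 3 (Vps13d, Fabp3 and Ahnak), while for Nebl Rab1a alone was highest.

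Replicate numbers did not pair the libraries: same-numbered libraries had a median correlation of deviations of 0.008 (−0.102 to 0.124 over 135 pairs), and other numbers −0.007. With a replicate block, 5 members rose from E18.5 to P1 in place of 4, and no call given above changed sign or was lost. Unless named here, the cause of a difference was not tested. At E10.5 depth limits Myom2 (62 counts over 3 libraries) and Myom3 (15 counts).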
